A study of Arabidopsis with 36 samples.

Results

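The question addressed was where the response of Col-0 seedlings to a warmer growth temperature differed between the root and the shoot. For each gene the response in roots (28 °C minus 21 °C) had the response in shoots (28 °C minus 21 °C) subtracted from it, and this difference between both responses is called the interaction here. A positive interaction means that the level moved up more, or down less, in roots than in shoots, and a negative one the reverse. It was computed from the 12 Col-0 libraries out of 36 in the series, on log2(RPKM + 1), where RPKM is the number of reads scaled to gene length and library size, so a value of 1 is 1 doubling on that scale. Col-0 is the wild-type Arabidopsis accession. Its seedlings were kept at 21 °C for 4 days and then held for 5 more days at 28 °C or at 21 °C before roots and shoots were separated, which gave 4 groups (root 28 °C, root 21 °C, shoot 28 °C and shoot 21 °C) of 3 replicates each. The labels describe a root replicate as RNA from a pool of roots, and the study's methods call the replicates independent. The other 24 libraries are labelled chl1-5 or hy5-215, each in the same 4 combinations of organ and temperature. The mutant chl1-5 lacks the nitrate transporter NRT1.1, and hy5-215 carries a mutant allele of the transcription factor HY5. These libraries enter only where the interaction is set beside that of Col-0. At NRT1.1 the shoot libraries labelled chl1-5 go against their label, as described below.

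Warm but not damaging temperatures change plant growth in a process called thermomorphogenesis, in which hypocotyls and roots elongate. In shoots it is known to run through phytochrome, phytochrome-interacting factors (PIFs) and auxin. Roots respond with other regulators, and HY5, a light-signalling transcription factor best known in shoots, also acts in roots.

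Depth over the 12 libraries was 61.1 to 84.9 M reads (M for mega). Root libraries had 61.1 to 66.3 M reads at 28 °C and 71.9 to 84.9 M reads at 21 °C, and shoot libraries 61.1 to 73.6 M reads at 28 °C and 79.7 to 84.7 M reads at 21 °C, so depth was lower at 28 °C in both organs. The share of reads in the 10 top genes was 3.78 to 4.05% in roots at 28 °C and 3.73 to 3.80% at 21 °C, against 9.35 to 9.70% in shoots at 28 °C and 11.2 to 11.3% at 21 °C. Replicates of roots differed more than replicates of shoots: the median SD of a gene on the log2 scale was 0.072 in roots at 28 °C, 0.056 in roots at 21 °C, 0.051 in shoots at 28 °C and 0.036 in shoots at 21 °C. Of 16 root markers, which include Casparian strip, root hair and root cap genes, the summed level was 321 to 352 RPKM in roots at 28 °C and 408 to 447 RPKM in roots at 21 °C, and 8.96 to 9.36 RPKM in shoots at 28 °C and 12.4 to 12.8 RPKM in shoots at 21 °C. Of 13 shoot markers without chloroplast genes, mostly stomatal and leaf polarity genes, it was 1.88 to 2.14 RPKM in roots at 28 °C and 1.53 to 1.97 RPKM in roots at 21 °C, and 51.5 to 54.0 RPKM in shoots at 28 °C and 72.5 to 73.9 RPKM in shoots at 21 °C. In these organ samples, fewer cells of a type and less RNA per cell cannot be told apart.

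Roots and shoots responded differently at most genes, mostly by a small margin. Of 18049 genes whose mean reached 1 RPKM, 10598 (58.7%) had an interaction that passed an adjusted p of 0.05, 4999 (27.7%) of them positive and 5599 (31%) negative, and 922 (5.11%) also exceeded 1 in size, 413 positive and 509 negative. The median absolute interaction of the called genes was 0.39. After rescaling within organs by a median of ratios, 5552 genes were called positive and 5118 negative. Which direction had more genes thus depended on the scaling. In roots 37.4% of the genes tested were called higher and 28.6% lower at 28 °C, and in shoots 41.5% were called higher and 28.11% lower. The pseudocount of 1 compresses the change of a gene in the organ where it is low, so an equal fold in both organs can give an interaction other than 0 when the levels differ. Of the 10598 calls, 9373 were called in the same direction when the recovered reads were tested with limma's voom, and 62 were called there in the other direction. Within the same fit, 9076 genes reached a mean of 5 RPKM in each organ, and of these 5738 were called and 345 were past 1.

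**Figure D1:**
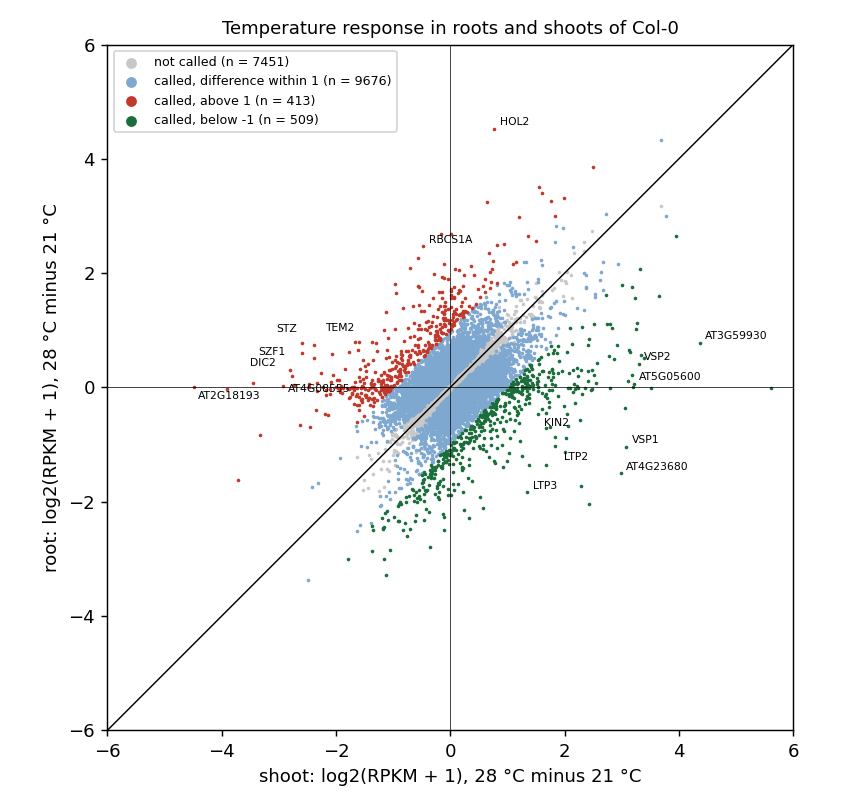
Each point is 1 of 18049 genes, with the change in roots (vertical) against the change in shoots (horizontal), both on log2(RPKM + 1), 28 °C minus 21 °C. On the diagonal both organs changed alike, and the 413 genes called above 1 lie over it and the 509 called below -1 under it.

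A gene could reach an interaction in several ways. Of the 10598 called genes, 1972 were called in both organs in opposite directions, which is 10.9% of all genes tested: 831 were higher in roots and lower in shoots at 28 °C, and 1141 were lower in roots and higher in shoots. A further 1334 changed in the same direction with the larger change in roots, and 1840 with the larger change in shoots. The root response alone was called for 2369 and the shoot response alone for 2977, and 106 were called in neither organ. Among the 922 genes past 1, 327 (35.5%) were opposite calls, 236 were called in shoots only and 142 in roots only.

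The largest positive interactions among genes with at least 5 RPKM in each organ were mostly falls in shoots that roots did not share. In HOL2 and RBCS1A, a Rubisco subunit described below with the photosynthesis genes, the larger change lay in roots instead. HOL2 (AT2G43920), of the HARMLESS TO OZONE LAYER methyltransferases, had 32.3, 42.2 and 26.03 RPKM in roots at 28 °C and 0.676, 0.367 and 0.382 RPKM in roots at 21 °C, against 12.2, 11.2 and 11.5 RPKM in shoots at 28 °C and 6.39, 6.45 and 6.35 RPKM in shoots at 21 °C. Every 28 °C library was above every 21 °C library in both organs, and the interaction was 3.76 ± 0.18 (SE, adjusted p = 7.9e-09).

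STZ, SZF1 and TEM2 shared 1 pattern, a loss in shoots beside a small gain in roots. STZ (AT1G27730), a zinc finger transcription factor of stress responses, had 9.44, 13.2 and 11.3 RPKM in roots at 28 °C and 9.26, 4.74 and 5.03 RPKM in roots at 21 °C, against 6.85, 6.65 and 6.30 RPKM in shoots at 28 °C and 45.8, 45.7 and 43.9 RPKM in shoots at 21 °C. SZF1 (AT3G55980), a CCCH zinc finger protein of the salt stress response, had 12.4, 12.6 and 15.7 RPKM in roots at 28 °C and 9.37, 8.27 and 8.22 RPKM in roots at 21 °C, against 9.60, 9.57 and 9.16 RPKM in shoots at 28 °C and 62.6, 63.2 and 60.9 RPKM in shoots at 21 °C. TEM2 (AT1G68840), a repressor of the flowering gene FT, had 20.11, 25.04 and 18.5 RPKM in roots at 28 °C and 14.4, 11.7 and 10.6 RPKM in roots at 21 °C, against 14.2, 15.04 and 14.2 RPKM in shoots at 28 °C and 80.4, 78.6 and 80.2 RPKM in shoots at 21 °C. The 21 °C shoots were the high group for all 3 genes, and their interactions were 3.39 ± 0.24, 3.19 ± 0.10 and 3.13 ± 0.15 (SE).

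DIC2 (AT4G24570), a mitochondrial dicarboxylate carrier, had 5.27, 5.59 and 7.10 RPKM in roots at 28 °C and 5.71, 4.05 and 4.25 RPKM in roots at 21 °C, against 6.95, 6.78 and 5.998 RPKM in shoots at 28 °C and 52.8, 52.3 and 51.1 RPKM in shoots at 21 °C. AT2G18193 averaged 6.03 RPKM in roots at 28 °C and 5.65 RPKM in roots at 21 °C, and 2.68 RPKM in shoots at 28 °C and 39.5 RPKM in shoots at 21 °C. Neither AT2G18193 nor AT4G08555 was called in roots (log2 change 0.08 and 0.21), and both fell in shoots, by 3.46 and 2.78. Temperature groups overlapped in roots for DIC2, AT2G18193 and AT4G08555 and in neither organ for TEM2 and SZF1.

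The largest negative interactions were gains in shoots, often with a loss in roots, and 2 of the 8 genes were the vegetative storage proteins VSP1 and VSP2, which are jasmonate-responsive. AT4G23680 had 28.7, 39.3 and 51.9 RPKM in roots at 28 °C and 89.8, 108 and 146 RPKM in roots at 21 °C, against 278, 281 and 279 RPKM in shoots at 28 °C and 34.8, 33.8 and 35.1 RPKM in shoots at 21 °C. VSP1 (AT5G24780) had 16.7, 22.4 and 35.8 RPKM in roots at 28 °C and 39.7, 40.0 and 78.8 RPKM in roots at 21 °C, against 119, 110.4 and 116 RPKM in shoots at 28 °C and 12.8, 12.5 and 12.8 RPKM in shoots at 21 °C. In both genes the temperature groups did not overlap in either organ and moved in opposite directions, with interactions of -4.48 ± 0.26 and -4.12 ± 0.36 (SE). VSP2 (AT5G24770) had 18.999, 17.5 and 34.9 RPKM in roots at 28 °C and 11.1, 15.2 and 27.6 RPKM in roots at 21 °C, against 321, 304 and 315 RPKM in shoots at 28 °C and 31.3, 30.7 and 30.8 RPKM in shoots at 21 °C. Its root groups overlapped and the root change of 0.42 was not called (adjusted p = 0.20). VSP1 and VSP2 are close paralogs, so reads can be split between them.

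LTP3 (AT5G59320) and LTP2 (AT2G38530) encode lipid transfer proteins of the cuticle and cell surface. LTP3 had 5.59, 5.59 and 6.24 RPKM in roots at 28 °C and 20.13, 21.102 and 29.6 RPKM in roots at 21 °C, against 17.398, 18.05 and 16.5 RPKM in shoots at 28 °C and 6.02, 6.66 and 5.94 RPKM in shoots at 21 °C. The warm roots and the cool shoots were thus its low groups. LTP2 averaged 13.98 RPKM in roots at 28 °C and 30.01 RPKM in roots at 21 °C, and 212 RPKM in shoots at 28 °C and 58.8 RPKM in shoots at 21 °C. KIN2 (AT5G15970), a cold- and abscisic acid-induced gene, had 96.0, 105 and 114 RPKM in roots at 28 °C and 177, 184 and 217 RPKM in roots at 21 °C, against 161, 155 and 159.7 RPKM in shoots at 28 °C and 43.8, 43.3 and 44.9 RPKM in shoots at 21 °C. The interactions of LTP3, LTP2 and KIN2 were -3.18, -2.85 and -2.69. AT3G59930 and AT5G05600 completed the set at -3.59 and -3.15: AT3G59930 rose in both organs, by 0.78 in roots and 4.37 in shoots, and AT5G05600 rose by 3.21 in shoots with a root change of 0.06 that was not called.

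**Figure D2:**
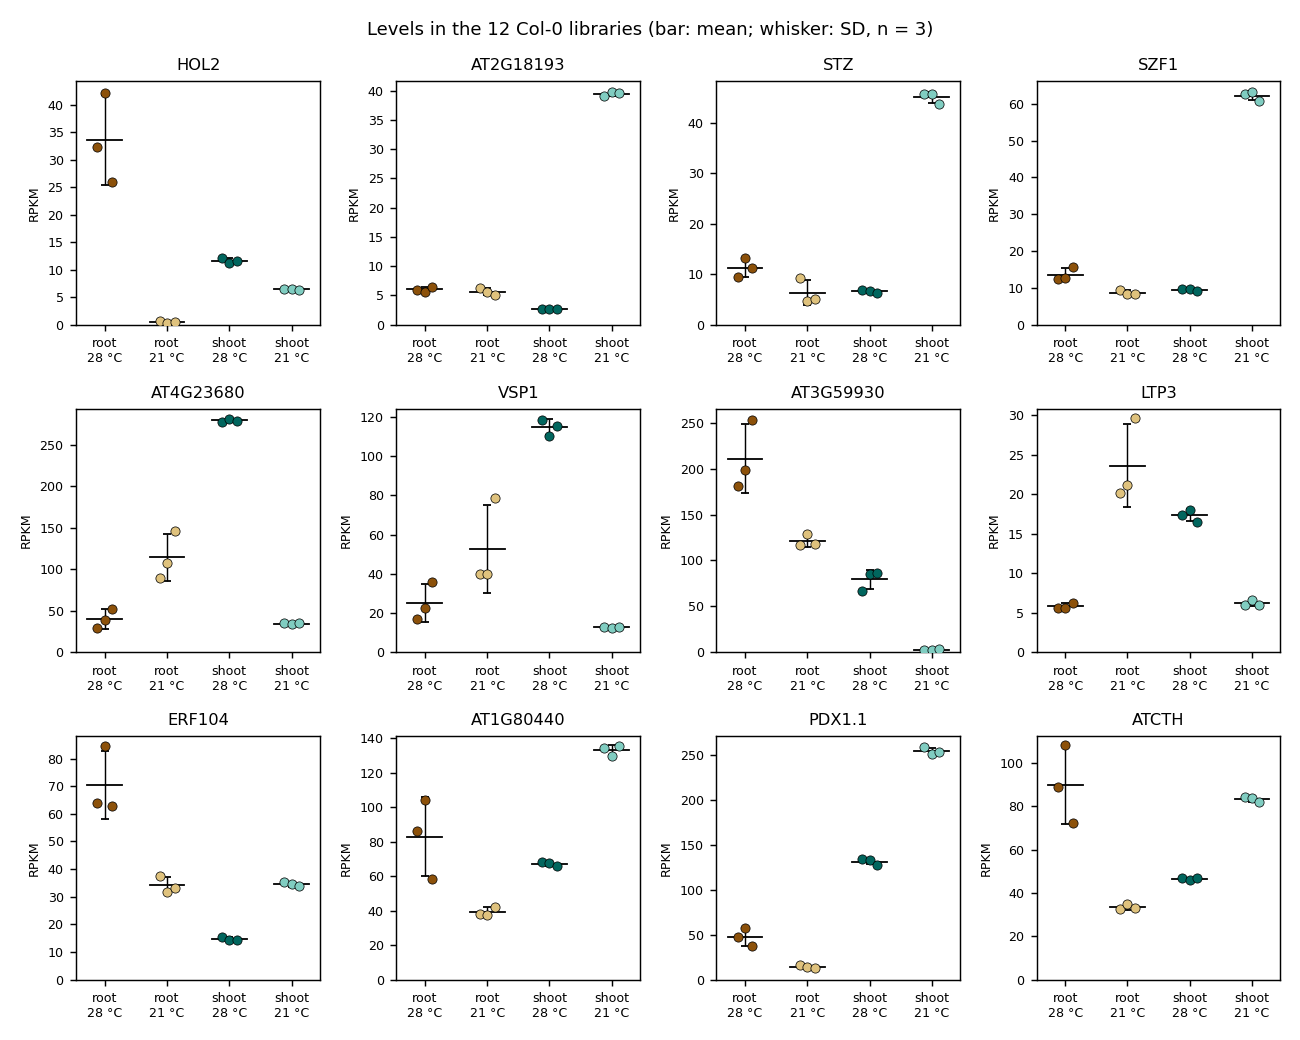
RPKM of 12 genes in each of the 12 Col-0 libraries, with the mean and SD of the 3 replicates. Top row, 4 large positive interactions: HOL2 is highest in the roots at 28 °C, and AT2G18193, STZ and SZF1 in the shoots at 21 °C. Middle row, 4 large negative interactions, of which AT4G23680 and VSP1 are highest in the shoots at 28 °C. Bottom row, 4 genes that rose in roots and fell in shoots.

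Of the genes at 5 RPKM or more in each organ, 1066 were opposite calls whose 28 °C and 21 °C libraries did not overlap in either organ, 408 of them higher in roots and lower in shoots at 28 °C. By the smaller of the 2 changes, ERF104 (AT5G61600), an ethylene response factor, led this direction with 64.0, 84.5 and 62.8 RPKM in roots at 28 °C and 37.4, 31.9 and 33.3 RPKM in roots at 21 °C, against 15.5, 14.5 and 14.5 RPKM in shoots at 28 °C and 35.5, 34.5 and 33.8 RPKM in shoots at 21 °C. At 21 °C both organs lay near each other, and at 28 °C they lay on either side of that level. AT1G80440, the F-box protein KISS ME DEADLY 1 that acts in cytokinin signalling, changed by 1.02 in roots and -0.97 in shoots. PDX1.1, a vitamin B6 synthesis enzyme, changed by 1.65 in roots and -0.95 in shoots, and ATCTH, a zinc finger protein, by 1.38 in roots and -0.82 in shoots. In the other direction AT4G23680, LTP3, AT1G14120 and VSP1 led, of which AT1G14120 had 13.1, 16.2 and 22.5 RPKM in roots at 28 °C and 34.8, 34.1 and 54.6 RPKM in roots at 21 °C, against 30.7, 30.6 and 31.995 RPKM in shoots at 28 °C and 12.6, 12.1 and 12.5 RPKM in shoots at 21 °C.

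Some genes were on in 1 organ and low in the other. They passed the filter through the organ where they were on, so their interactions come mostly from it by construction. Of 352 genes with a mean under 1 RPKM in roots and at least 10 RPKM in shoots, 254 were called, 130 positive and 124 negative, and of 259 genes on in roots instead, 117 were called, 55 positive and 62 negative, beside 58.7% called over all genes. NATA1 (AT2G39030), which acetylates ornithine and is jasmonate-induced, had 0 to 1 read in each root library at 28 °C and 0 to 1 at 21 °C, and in shoots 3156 to 3981 reads at 28 °C and 0 to 2 reads at 21 °C. In shoots at 28 °C this came to 49.6, 48.5 and 47.1 RPKM. CORI3 (AT4G23600), named for its induction by the jasmonate mimic coronatine, had 0 to 3 reads in root libraries, and 29.8, 29.8 and 30.01 RPKM in shoots at 28 °C and 1.801, 1.72 and 1.56 RPKM in shoots at 21 °C. The jasmonate synthesis enzyme AOC2 (AT3G25770) had 0.377, 0.478 and 0.419 RPKM in roots at 28 °C and 0.862, 0.760 and 0.873 RPKM in roots at 21 °C, against 576, 604 and 592 RPKM in shoots at 28 °C and 67.7, 67.2 and 74.9 RPKM in shoots at 21 °C. All 3 rose in shoots. In roots AOC2 fell by 0.36, and the changes of NATA1 and CORI3 were not called. On the positive side AT3G16670 had no read in any root library, and 0.597, 0.829 and 0.832 RPKM in shoots at 28 °C and 37.1, 36.8 and 40.5 RPKM in shoots at 21 °C. AT2G04050 and UGT73C6, a flavonol glucosyltransferase, changed by -3.92 and -2.22 in shoots while their root libraries averaged under 1 RPKM.

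Jasmonate genes had the most negative median of the 22 gene lists, mostly through genes that were on in shoots. Jasmonate is made from fatty acids by LOX, AOS, AOC and OPR enzymes, and JAZ proteins repress its targets. Of 14 members 11 passed the filter on low values, and these were called negative, beside 31% of all genes tested, with a median of -1.70 beside -0.01 over all genes. Of the 11, 6 averaged under 1 RPKM in roots and passed through their shoot level, so that their interaction is close to the shoot rise by construction. With 1 RPKM required in each organ the 5 others were called negative with a median of -0.60, when the abscisic acid list had -1.08. In shoots the 11 were called higher at 28 °C, beside 41.5% of all genes. In roots 4 were called higher and 2 lower, beside 37.4% and 28.6% of all genes. LOX2, the first plastid enzyme of the pathway, averaged 0.00631 RPKM in roots at 28 °C and 0.0355 RPKM in roots at 21 °C, and 331 RPKM in shoots at 28 °C and 98.9 RPKM in shoots at 21 °C. AOS, which is on in both organs, averaged 21.97 and 14.7 RPKM in roots at 28 °C and 21 °C, and 199.995 and 94.96 RPKM in shoots at 28 °C and 21 °C, with an interaction of -0.52. JAZ10, a repressor induced by the hormone, averaged 0.674 and 0.777 RPKM in roots at 28 °C and 21 °C, and 5.71 and 1.19 RPKM in shoots at 28 °C and 21 °C. MYC2, the main transcription factor of the pathway, was listed at 0 in all 12 libraries. Whether it was silent or not counted cannot be told from these values.

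Photosynthesis genes had the most positive median among the gene lists. Of 47 members, all tested, 42 were called positive, beside 27.7% of all genes, and none negative, with a median of 1.35. In roots 42 were called higher at 28 °C and none lower, beside 37.4% higher and 28.6% lower of all genes. In shoots 5 were called higher and 18 lower, beside 41.5% higher and 28.11% lower. RBCS1A (AT1G67090), a small subunit of Rubisco, had 222, 252 and 189 RPKM in roots at 28 °C and 40.2, 42.6 and 33.9 RPKM in roots at 21 °C, against 11104, 11680.4 and 11178 RPKM in shoots at 28 °C and 15557, 15608 and 15998 RPKM in shoots at 21 °C. LHCB1.3, a chlorophyll-binding antenna protein, had 159.6, 168 and 112 RPKM in roots at 28 °C and 24.98, 28.5 and 14.2 RPKM in roots at 21 °C, against 13600.5, 13533 and 12960.1 RPKM in shoots at 28 °C and 15255, 14743 and 14745 RPKM in shoots at 21 °C. Root groups did not overlap for either gene, and the interactions were 2.94 ± 0.14 and 2.84 ± 0.28 (SE). Among the Calvin cycle enzymes HCEF1, a plastid fructose-bisphosphatase, had an interaction of 2.83, GAPA one of 2.36, PRK one of 2.32 and GAPB one of 2.19. RBCS and LHCB1 genes are near-identical copies, so reads can be split among them, and the models of LHCB1.3, HCEF1 and GAPA overlap a neighbouring gene.

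Even after the rise, the root levels were a small part of the shoot levels. Over the 47 genes the level in roots was a median of 1.58% (0.00471 to 5.47%) of that in shoots at 28 °C, and 0.488% (0.0183 to 3.02%) at 21 °C, and the median ratio of 28 °C over 21 °C was 2.505 in roots and 0.913 in shoots. The share differed between genes that are all abundant in shoots: RBCS1A stood at 1.95% of its shoot level at 28 °C, whereas the carbonic anhydrase CA1 averaged 0.037 RPKM in roots and 786 RPKM in shoots at 28 °C, and RBCS1B averaged 0.0834 RPKM in roots and 831 RPKM in shoots at 28 °C. Neither CA1 nor RBCS1B was called (interaction 0.12 and -0.06). Of the 13 shoot markers without chloroplast genes 11 averaged under 0.1 RPKM in roots and CLV3 was at 0 in every root library. YAB1 averaged 0.00432 RPKM in roots and 17.04 RPKM in shoots at 28 °C. The part of green tissue in root samples in this result was not tested beyond these values.

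**Figure D3:**
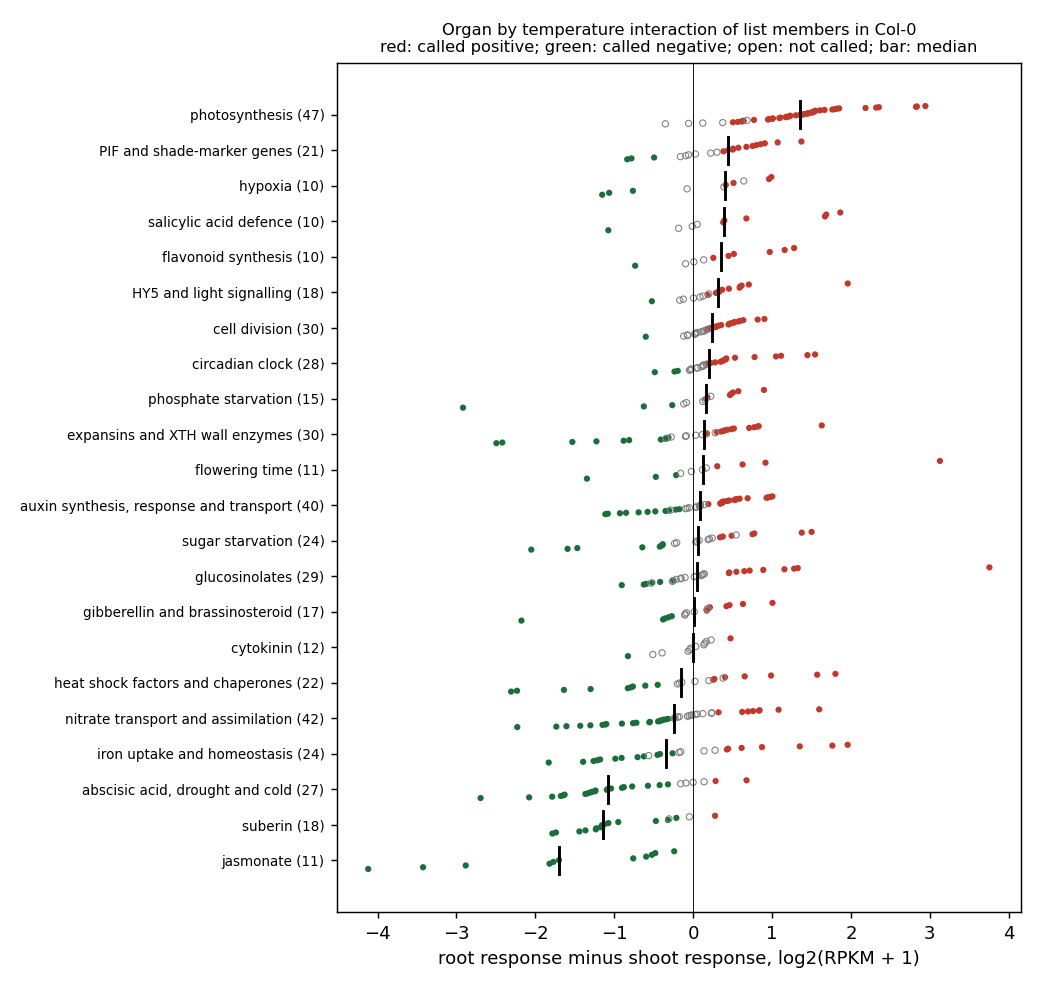
Interaction of each tested member of 22 gene lists (horizontal axis, root response minus shoot response on log2(RPKM + 1)), with the list median as a bar and the number tested beside the name. The jasmonate, suberin and abscisic acid lists have medians of -1.70, -1.14 and -1.08, and the photosynthesis list 1.35.

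Abscisic acid, drought and cold genes mostly went down in roots, while in shoots their calls were not far from the shares of all genes. Of 27 members tested of 31, 21 were called negative and 2 positive, beside 31% and 27.7% of all genes, with a median of -1.08. In roots 17 were called lower and 2 higher at 28 °C, beside 28.6% lower and 37.4% higher of all genes, and in shoots 13 were called higher and 8 lower, beside 41.5% higher and 28.11% lower. ERD10, a dehydrin, averaged 114 and 302 RPKM in roots at 28 °C and 21 °C, and 60.8 and 51.8 RPKM in shoots at 28 °C and 21 °C. KIN1, a paralog of KIN2, fell in both organs, by 2.45 in roots and 1.17 in shoots, and its interaction was -1.28. GOLS1, a galactinol synthase that is also heat-induced, rose in both organs, with 71.3, 80.3 and 76.5 RPKM in roots at 28 °C and 23.3, 20.6 and 32.8 RPKM in roots at 21 °C, against 105, 99.0 and 104 RPKM in shoots at 28 °C and 10.5, 9.54 and 9.88 RPKM in shoots at 21 °C. The drought gene RD29B was called in shoots and not in roots, with 1.47, 1.79 and 1.41 RPKM in roots at 28 °C and 1.22, 1.58 and 1.599 RPKM in roots at 21 °C, against 8.43, 8.33 and 8.72 RPKM in shoots at 28 °C and 1.797, 1.598 and 1.58 RPKM in shoots at 21 °C. RD20, with an interaction of -2.08, had at most 0.0137 RPKM in any root library.

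Suberin genes, which build the lipid barrier of the endodermis and periderm, were 15 negative and 1 positive of 18 tested, beside 31% and 27.7% of all genes, with a median of -1.14. With 1 RPKM required in each organ 8 of 11 were called negative, with a median of -0.47. Most went down in both organs: 17 were called lower in roots and 13 lower in shoots at 28 °C, beside 28.6% and 28.11% of all genes. The fatty acyl hydroxylase CYP86A1 averaged 12.9 and 77.4 RPKM in roots at 28 °C and 21 °C, and 1.32 and 4.91 RPKM in shoots at 28 °C and 21 °C. The half-transporter ABCG6 had 7.46, 6.76 and 8.86 RPKM in roots at 28 °C and 44.2, 44.4 and 39.2 RPKM in roots at 21 °C, against 0.952, 0.757 and 0.854 RPKM in shoots at 28 °C and 2.4002, 2.34 and 2.56 RPKM in shoots at 21 °C. KCS2, a fatty acid elongase, was the member with opposite calls, at 14.1, 13.9 and 15.6 RPKM in roots at 28 °C and 31.2, 34.4 and 32.4 RPKM in roots at 21 °C, against 5.23, 5.18 and 5.21 RPKM in shoots at 28 °C and 3.08, 3.11 and 2.90 RPKM in shoots at 21 °C. At low shoot levels the pseudocount compresses a fall. With voom on the recovered reads 10 of the 18 were called negative and none positive, with a median of -0.70, and FAR5 was no longer called.

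Nitrate genes were divided. Of 42 tested of 47, 21 were called negative and 8 positive, beside 31% and 27.7% of all genes, with a median of -0.24. NRT1.1 (AT1G12110), the nitrate transporter and sensor, had 14.2, 10.3 and 14.3 RPKM in roots at 28 °C and 70.9, 78.2 and 78.0 RPKM in roots at 21 °C, against 7.19, 7.53 and 7.19 RPKM in shoots at 28 °C and 17.9, 17.5 and 17.7 RPKM in shoots at 21 °C. It fell in both organs without overlap, by 2.48 in roots and 1.17 in shoots, and its interaction was -1.30 ± 0.13 (SE, adjusted p = 3.6e-06). GLN1;2, a cytosolic glutamine synthetase, was called in roots and not in shoots, with 109, 89.4 and 112 RPKM in roots at 28 °C and 413, 337 and 318 RPKM in roots at 21 °C, against 126, 125 and 124 RPKM in shoots at 28 °C and 127, 129 and 128 RPKM in shoots at 21 °C. NIA2, the main nitrate reductase, fell by 1.22 in roots and rose by 0.21 in shoots. NRT1.8, which takes nitrate out of the xylem, rose in both organs, more in shoots (1.03 in roots and 3.26 in shoots). On the positive side BT2, a nitrate-responsive scaffold protein, had 76.9, 79.0 and 70.5 RPKM in roots at 28 °C and 35.9, 32.1 and 41.8 RPKM in roots at 21 °C, against 60.9, 63.0 and 62.1 RPKM in shoots at 28 °C and 90.7, 91.8 and 94.7 RPKM in shoots at 21 °C. NRT1.5, which loads nitrate into the xylem, averaged 128 and 281 RPKM in roots at 28 °C and 21 °C, and 6.80 and 17.7 RPKM in shoots at 28 °C and 21 °C, with an interaction of 0.12 that was not called.

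HY5 (AT5G11260) itself had 39.1, 50.3 and 38.2 RPKM in roots at 28 °C and 27.04, 24.3 and 24.1 RPKM in roots at 21 °C, against 7.93, 7.94 and 8.25 RPKM in shoots at 28 °C and 4.67, 4.99 and 4.77 RPKM in shoots at 21 °C. It rose in both organs, by 0.73 in roots and 0.64 in shoots, and the interaction of 0.09 ± 0.12 (SE) was not called (adjusted p = 0.54). Of the 18 tested HY5 and light signalling genes, 11 were called positive and 1 negative, beside 27.7% and 31% of all genes, with a median of 0.31. ELIP2, a light-stress protein of the chloroplast, had the largest value, 1.96. Of 21 tested PIF and shade-marker genes 12 were called positive and 3 negative, beside 27.7% and 31% of all genes, with a median of 0.44. In roots 10 were called higher and 3 lower at 28 °C, beside 37.4% and 28.6% of all genes, and in shoots 5 were called higher and 10 lower, beside 41.5% and 28.11%. PRE6, a growth-promoting bHLH protein, fell by 1.27 in shoots with a root change of 0.11 that was not called, and PIF1 rose by 0.87 in roots and fell by 0.20 in shoots.

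Most cell cycle genes were called lower at 28 °C in both organs. Of 30 tested, 21 were lower in roots and 24 in shoots, beside 28.6% and 28.11% of all genes, and 18 had a positive and 1 a negative interaction, beside 27.7% and 31%, with a median of 0.24 and none past 1. The spindle protein TPX2 had 4.51, 4.62 and 4.36 RPKM in roots at 28 °C and 5.77, 6.02 and 5.87 RPKM in roots at 21 °C, against 2.55, 2.59 and 2.58 RPKM in shoots at 28 °C and 7.13, 6.9997 and 6.57 RPKM in shoots at 21 °C. The mitotic cyclin CYCB1;2 fell by 0.52 in roots and 1.05 in shoots. None of the 6 MCM helicase genes of DNA replication was called, at -0.12 to 0.13.

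Of 22 heat shock factors and chaperones 18 were called higher in roots and 18 in shoots, beside 37.4% and 41.5% of all genes. Their interactions, 7 positive and 9 negative, were near the 27.7% and 31% of all genes. HSP18.2 had 10.12, 7.65 and 9.80 RPKM in roots at 28 °C and 5.47, 5.01 and 7.51 RPKM in roots at 21 °C, against 26.4, 24.8 and 25.1 RPKM in shoots at 28 °C and 2.62, 3.03 and 2.90 RPKM in shoots at 21 °C, an interaction of -2.23. The mitochondrial HSP23.6-MITO went the other way, with 9.95, 9.30 and 13.2 RPKM in roots at 28 °C and 0.117, 0.0692 and 0.129 RPKM in roots at 21 °C, against 7.003, 6.83 and 7.44 RPKM in shoots at 28 °C and 1.63, 1.90 and 1.48 RPKM in shoots at 21 °C, an interaction of 1.804. Of 30 wall enzymes 13 were called positive and 9 negative, beside 27.7% and 31% of all genes. XTH23 and XTH18, xyloglucan-modifying enzymes, rose by 2.46 and 2.30 in shoots with no call in roots, while the touch-induced XTH22 fell by 0.81 in shoots and rose by 0.82 in roots. GASA1, a gibberellin-regulated peptide gene, rose in both organs and more in shoots (0.74 in roots and 2.92 in shoots). Clock genes were 15 positive and 3 negative of 28, beside 27.7% and 31% of all genes, led by LNK2 (1.55), whose model overlaps 2 neighbours, and RVE1 (1.45), but with voom 8 were positive and 6 negative. Auxin genes were 18 positive and 11 negative of 40, beside the same shares, but the negatives were 4 with voom and 2 of 22 with 1 RPKM required in each organ. Hypoxia had the median furthest from 0 (0.40, but -0.76 with a filter of 5 RPKM) of the lists not described above.

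Levels in the 2 organs came nearer to each other at 28 °C more often than they moved apart. Genes were classed by the root minus shoot difference in log2(RPKM + 1) averaged over both temperatures of the same libraries. Of 4650 genes higher in roots by more than 1, 2825 were called, 962 positive and 1863 negative, so that 65.9% of the called genes moved nearer. Of 2556 genes higher in shoots by more than 1, 1856 were called, 1253 positive and 603 negative, so that 67.5% moved nearer. Of the 10843 genes within 1, 5917 were called and 47.1% of these were positive. Over both classes 3116 of 4681 called genes (66.6%) lay nearer at 28 °C, and 74.0% (1488 of 2011) did among genes with at least 5 RPKM in each organ. The genes furthest toward the root did not follow this: the 44 genes higher there by more than 5 had a median interaction of 0.30. The photosynthesis genes described above belong to the shoot-high class and the suberin genes mostly to the root-high class.

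**Figure D4:**
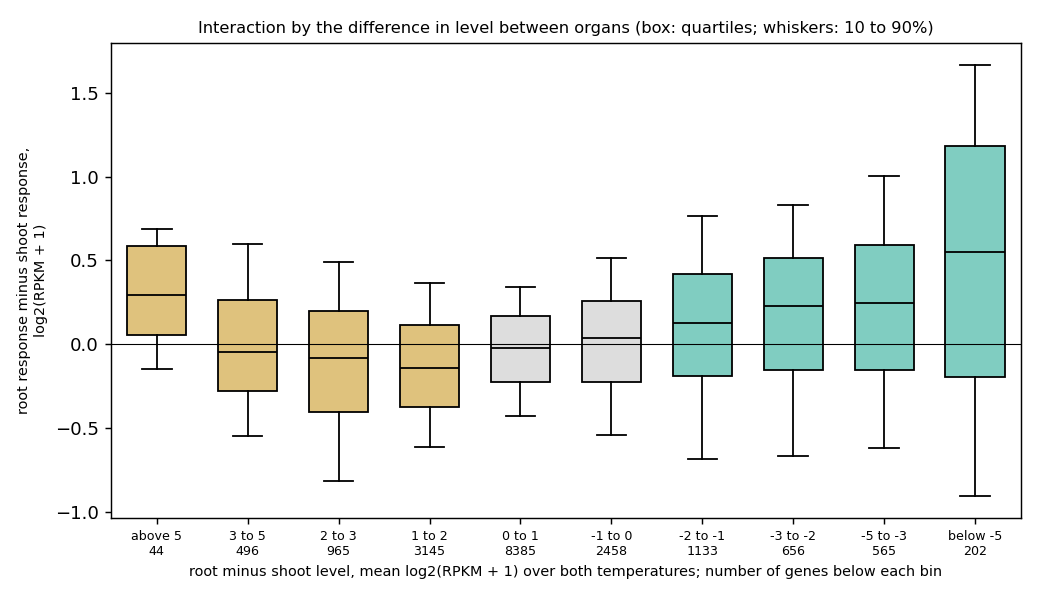
Interaction (vertical, log2(RPKM + 1)) of all 18049 tested genes, binned by the root minus shoot difference in level averaged over both temperatures, from root-high on the left to shoot-high on the right. The median is -0.14 for genes higher in roots by 1 to 2 and 0.55 for the 202 genes higher in shoots by more than 5, but 0.30 for the 44 genes higher in roots by more than 5.

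The same contrast was computed in the mutant libraries. As a check of their labels, NRT1.1 had at most 0.0115 RPKM in the root libraries labelled chl1-5, but 18.5 to 19.4 RPKM at 28 °C and 12.97 to 13.8 RPKM at 21 °C in the shoot libraries labelled chl1-5, where Col-0 shoots had 7.19 to 7.53 RPKM at 28 °C and 17.5 to 17.9 RPKM at 21 °C. The shoot libraries labelled chl1-5 thus go against their label at this gene, and the values below use them as labelled. HY5 had 6.34 to 7.17 RPKM in hy5-215 roots at 28 °C and 7.08 to 8.30 RPKM at 21 °C, below the 24.1 RPKM or more of every Col-0 root library. In hy5-215 shoots it had 4.76 to 5.68 RPKM at 28 °C and 5.49 to 5.96 RPKM at 21 °C, where Col-0 shoots had 7.93 to 8.25 RPKM at 28 °C and 4.67 to 4.99 RPKM at 21 °C, so at 21 °C it was not lower in hy5-215 shoots. In 1 fit of all 36 libraries, with 18173 genes tested, the interaction was called for 65.8% of genes in the libraries labelled chl1-5 and 62.3% in hy5-215. It differed from that of Col-0 for 6602 genes (36.3%) in the libraries labelled chl1-5 and 5647 genes (31.1%) in hy5-215, of which 178 and 382 differed by more than 1.

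Most large interactions of Col-0 kept their direction in the mutant libraries. Of 911 genes past 1 in Col-0 that were tested in the 36 libraries, 899 (98.7%) had the same sign in the libraries labelled chl1-5 and 865 were also called there, and 876 (96.2%) had the same sign in hy5-215 and 801 were also called. The difference from Col-0 was called for 322 of them (35.3%) in the libraries labelled chl1-5, beside 36.3% of all genes. In hy5-215 it was called for 467 (51.3%), beside 31.1% of all genes. These genes were chosen for their size in the Col-0 libraries, which also enter the difference. Of the called genes with an organ difference past 1, 52.9% of 5365 in the libraries labelled chl1-5 and 59.6% of 4954 in hy5-215 lay nearer between organs at 28 °C, against 66.6% of 4681 in Col-0, and the difference among these shares was not tested.

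HOL2 had an interaction of 0.48 in hy5-215, which was not called (adjusted p = 0.24), and 4.08 in the libraries labelled chl1-5, against 3.76 in Col-0. The difference of hy5-215 from Col-0 was -3.28 (adjusted p = 1.2e-05). Photosynthesis genes had a median of 0.58 in hy5-215, with 30 of 47 called positive and 3 negative. In the libraries labelled chl1-5 their median was 1.63, with 43 positive. Over all genes, 62.3% in hy5-215 and 65.8% in the libraries labelled chl1-5 were called in either direction. For 27 of the 47 the difference of hy5-215 from Col-0 was called, beside 31.1% of all genes. The difference of the libraries labelled chl1-5 was called for 5, beside 36.3% of all genes. RBCS1A had 1.41 in hy5-215 against 2.94 in Col-0, and this difference of -1.54 was called (adjusted p = 0.027). Jasmonate genes had medians of -1.23 in the libraries labelled chl1-5 and -1.45 in hy5-215. All 11 and 10 of the 11 were called negative, beside 65.8% and 62.3% of all genes called in either direction. The abscisic acid list had medians of -1.13 and -1.32. The suberin list had medians of -1.05 and -0.51. Its difference from Col-0 was called for 3 and 6 of 18, beside 36.3% and 31.1% of all genes. NRT1.1 in hy5-215 had an interaction of -0.38, which differed from Col-0 by 0.92 (adjusted p = 5.9e-04).

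**Figure D5:**
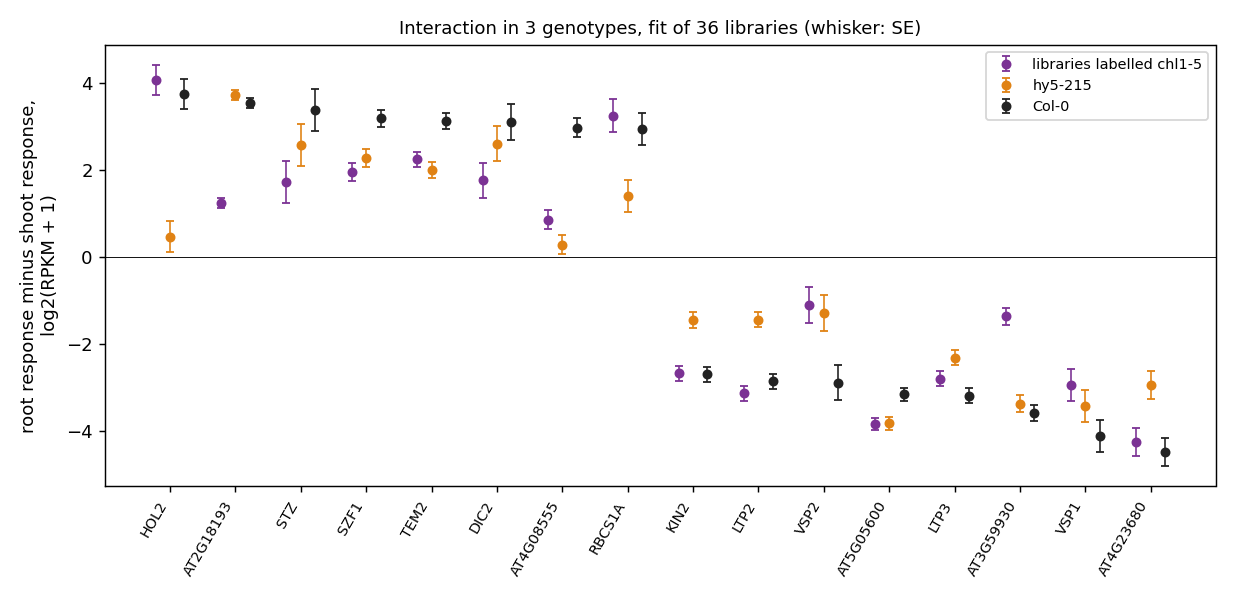
Interaction with its SE for the 16 genes with the largest interactions in Col-0, in the libraries labelled chl1-5, hy5-215 and Col-0, from 1 fit of 36 libraries (vertical axis on log2(RPKM + 1)). All keep their sign in the 3 genotypes, but HOL2 (0.48) and AT4G08555 (0.29) were not called in hy5-215. These 2 genes differed most from Col-0 (3.76 and 2.98) in hy5-215. In the libraries labelled chl1-5 the largest differences were in AT2G18193 (1.24 against 3.54 in Col-0), AT3G59930 (-1.36 against -3.59) and AT4G08555 (0.86 against 2.98).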

How the data were processed

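RNA-seq of roots and shoots was analysed in 36 libraries, 12 of them from Col-0. The authors aligned reads with STAR 2.7.0a to TAIR10 and processed them with edgeR 3.36.0 per the submitters' processing notes, and deposited RPKM values per gene. RPKM times the gene span, introns included, gave whole reads for at least 99.995% of values (tolerance 0.01), so depth was recovered. Strand use in counting is not given in the sources used here. RPKM was tested as log2(RPKM + 1) with limma 3.58.1 (R 4.3.3), with group means as the design, the contrast of both responses, eBayes with trend, and Benjamini-Hochberg adjustment. A gene was called at an adjusted p under 0.05. Genes needed a mean of 1 RPKM over the 12 libraries, or over the 36 for genotypes. Genes named were those called with at least 5 RPKM in each organ, the 8 largest in each direction, the 4 opposite calls in each direction with the largest smaller change, the 3 largest in each direction with under 1 RPKM in 1 organ and 10 or more in the other, NRT1.1 and HY5, and up to 4 members of a list. Other members are named as defining members or in a count. The filter, rule, members and lists were chosen with earlier results of these data known. Names come from RefSeq (TAIR10.1), which matched 24528 of 24532 genes. The script was tested on simulated data. Promoter motifs were planned and not analysed here. P-values measure the spread between 3 replicates a group.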

Additional observations from a re-analysis of the deposited data

Results flagged for a closer look

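The response to 28 °C differed between roots and shoots, by the interaction test of limma, at 4999 genes in the positive and 5599 genes in the negative direction. The direction with more genes turned under scaling within organs. The interaction differed in turn between the libraries labelled chl1-5 and Col-0 at 6602 genes and between hy5-215 and Col-0 at 5647 genes. Over the 116 genes of the naming rule, 41 differences were called and exceeded 1 (mutant minus Col-0, on the log2(RPKM + 1) scale), 28 in hy5-215 and 13 in the libraries labelled chl1-5.

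In hy5-215 it was -3.28 for HOL2, -2.69 for AT4G08555, -1.54 for RBCS1A and -1.13 for TEM2, and 1.5995 for VSP2, 1.55 for AT4G23680, 1.42 for LTP2 and 1.25 for KIN2. Of the genes that rose in roots and fell in shoots in Col-0 it was -1.598 for AT1G80440, -1.53 for ATCTH, -1.19 for ERF104 and -1.13 for PDX1.1. Of the photosynthesis genes it was -2.10 for LHCB1.3, -1.603 for HCEF1 and -1.57 for GAPA. Clock and light signalling genes gave -1.50 for RVE1, -1.28 for LNK2 and -1.38 for RUP1. The auxin-induced SAUR20 and SAUR21 had 1.6005 and 1.46, and the flavonoid genes CHI and MYB12 had 1.42 and -1.12. The others were -1.57 for TEM1, -1.38 for NRT1.8, -1.36 for NATA1, -1.19 for AT3G16670, -1.19 for CYP79F1 and 1.23 for NAS2.

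In the libraries labelled chl1-5 it was -2.30 for AT2G18193, -2.12 for AT4G08555, -1.99 for AT2G04050, -1.91 for HSP23.6-MITO, -1.59 for WRKY70, -1.24 for SZF1 and -1.05 for TEM1. The positive values were 3.06 for DIN6, 2.23 for AT3G59930, 1.79 for VSP2, 1.34 for SAUR20, 1.21 for DIN2 and 1.09 for SAUR21.

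Of the 41 differences 39 run against the sign of the Col-0 interaction, and NATA1 and NRT1.8 in hy5-215 run with it. The genes were chosen by Col-0 interactions, and the Col-0 libraries enter the difference.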

How the results depend on the processing

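No count over all genes moved by over 1.5 times under the pseudocount of 0.5, no filter, 1 RPKM in each organ, median of ratios or quantile scaling within organs, eBayes without trend, library weights or all 36 libraries. The balance of directions did turn with scaling within organs. Median of ratios gave 5552 positive and 5118 negative calls, and quantile scaling 5604 and 5063. The count past 1 (922) depended on the low values: 1420 with a pseudocount of 0.1, 1530 with voom on recovered reads and 606 with a filter of 5 RPKM. The same pseudocount gave 1849 past 1 in the libraries labelled chl1-5, 1602 in hy5-215, and 519 and 729 for their differences from Col-0. With 5 RPKM in each organ, chosen after seeing the data, a fit of those genes alone called 5836 (2528 positive, 3308 negative), 345 past 1, 1214 in opposite directions and 1488 nearer at 28 °C. Without 1 library at a time 9736 to 10764 genes were called and 888 to 978 were past 1. Same-numbered libraries had residual correlations of -0.16 to 0.46, and libraries of different numbers -0.52 to 0.47. Whether same-numbered libraries share a batch or a pairing was not tested. A replicate block of number and temperature gave 10308 calls, and one of number alone 10596. Of 116 named genes, 14 lost their call in 25 of 2873 values. Reversed were COR27 (-0.27), AT2G30766 (2.01), TGG2 (-0.11) and SPCH (-0.95) with voom, and HY5, not called, without Col-0 root 28 °C replicate 2 (-0.036, with a range of -0.036 to 0.158 over the 12 libraries left out). Counts of list members did move: with 1 RPKM in each organ the negative calls were 5 for jasmonate, 8 for suberin and 2 for auxin, and the positive calls 4 for glucosinolates. List medians that reversed were glucosinolates (-0.15 at 1 RPKM and -0.069 at 5 RPKM in each organ, -0.11 with voom), flowering time (-0.011 with a pseudocount of 0.1, -0.0063 with voom), hypoxia (-0.76 at 5 RPKM, -0.91 at 5 RPKM in each organ), root markers (0.089 with a pseudocount of 0.1, 0.35 with voom) and shoot markers (-0.21 at 1 RPKM in each organ). Medians within the replicate spread of 0 also changed sign, for gibberellin and brassinosteroid (0.014, and -0.18 at 5 RPKM and at 5 RPKM in each organ) and cytokinin (0.0026, and down to -0.040 without 1 library). The promoter motif shares were not run.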

Other observations

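Of 24 iron genes tested, 12 were called negative and 7 positive, beside 31% and 27.7% of all genes, but with voom on the recovered reads 6 were negative and 9 positive. The ferritin FER1, an iron store, had 59.4, 63.2 and 43.4 RPKM in roots at 28 °C and 89.9, 97.0 and 79.6 RPKM in roots at 21 °C, against 34.2, 32.95 and 35.2 RPKM in shoots at 28 °C and 194, 189 and 189.6 RPKM in shoots at 21 °C, an interaction of 1.76. It fell in both organs, further in shoots. NAS3, which makes the iron chelator nicotianamine, was at or near 0 in roots and fell by 1.96 in shoots.

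Of the 19 salicylic acid defence genes 10 were tested, and of these 6 were called positive and 1 negative, beside 27.7% and 31% of all genes, and in shoots 6 were called lower and none higher at 28 °C, beside 28.11% and 41.5%. Only 6 of the 10 reached 1 RPKM in each organ, and of those 4 were called positive and none negative. WRKY70, a transcription factor of this pathway, had 1.69, 1.97 and 1.48 RPKM in roots at 28 °C and 2.43, 2.89 and 2.99 RPKM in roots at 21 °C, against 1.23, 1.15 and 1.13 RPKM in shoots at 28 °C and 8.63, 8.82 and 8.37 RPKM in shoots at 21 °C. Among the shoot markers the stomatal lineage receptor TMM had 5.96, 6.13 and 5.31 RPKM in shoots at 28 °C and 17.2, 16.3 and 16.4 RPKM in shoots at 21 °C, while no root library exceeded 0.238 RPKM. The leaf polarity gene YAB1 averaged 17.04 RPKM in shoots at both temperatures.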
